A study of Drosophila melanogaster with 5 samples.

Results

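The large subunit ribosomal proteins of *D. melanogaster* were followed through 5 lists of translated ORFs from S2 cells, a cell line derived from late embryos. A gene was counted as a member when its symbol in the Release 6 annotation started with RpL and a digit, or was RpLP0, RpLP1 or RpLP2. An ORF was given to such a gene when its span lay in exactly 1 protein-coding gene. Of 53 annotated RpL genes, 48 had an ORF in at least 1 list, with 77 distinct ORFs of 23277 in all lists together. Mitochondrial large subunit proteins (mRpL) were not members.

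Ribo-Seq sequences the mRNA fragments that ribosomes shield from RNase, and here it was performed on 80S ribosomes from S2 cells with 1 sample per condition. Lysates were footprinted with E-RNaseI (the Thermo Fisher enzyme) in Buffer 2 (low ionic, 100 mM Tris-HCl, 50 mM NaCl by the labels and less by the methods) or with A-RNaseI (the Ambion enzyme) in Buffer 1 (high ionic, 50 mM Tris-HCl, 150 mM NaCl), both with 10 mM MgCl2. Cells were treated for 3 min with cycloheximide or left untreated, and all cells, untreated ones included, met cycloheximide in the wash and in the lysis buffer. The lists are E-RNaseI with cycloheximide, A-RNaseI with cycloheximide, a deep list of E-RNaseI without cycloheximide, and the standard lists of E-RNaseI and of A-RNaseI without cycloheximide. The sources used here do not say whether the deep sample is the standard library sequenced further or a separate culture. Lists of cells given cycloheximide before pelleting are called treated and the others untreated, and an untreated list is the standard one unless named deep.

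The large subunit of the ribosome joins amino acids at the peptidyl transferase centre, which is built of rRNA, and passes the nascent chain out through a tunnel. Its proteins fold and tie the rRNA, line the tunnel and its exit, and form the stalk that recruits elongation factors. They are needed in near-equal numbers, since each ribosome holds a single copy of most of them, and their mRNAs are among the most heavily translated of growing cells. Cycloheximide binds the E site of the large subunit and blocks elongation.

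Each ORF in a list carries a whole number of P-sites, the positions of the ribosomal P site inferred from the footprints. Neither the lists nor the methods name that number, and it was read as the P-site count, with a lowest value of 6 in every list. The level of a gene is its P-sites per 100 nt of the called ORF. Counted once per stop codon, the standard lists held 610128 to 1947790 P-sites and the deep list 9141565. No RNA-seq was used, so more mRNA and more ribosomes per mRNA cannot be told apart. With 1 list per condition there is no spread between replicates, no test was run between conditions, and all intervals are 95% intervals of counting error only. The hemocyte markers Pxn, srp and crq, genes of the blood cell lineage S2 cells resemble, were found in all 5 lists. Of 10 such markers 3 or 4 were found in each standard list and 7 in the deep list, while none of the neuron, muscle or fat body markers was found in any. Of 4 germline markers only bam was found, with 44 P-sites in the deep and 8 in the untreated E-RNaseI list.

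Most members were in every list. Of the 48 members, 42 (87.5%) had their main ORF in all 5 lists, where 53.2% of all genes with a main ORF did so. That was so for 26 of 32 small subunit (RpS) genes, for 24 of 45 mRpL genes and for 20 of 24 genes of large subunit assembly. The background of all genes includes many with few P-sites. Of 1651 genes with at least 1000 P-sites in the deep list, 17 were missing from the treated E-RNaseI and 45 from the treated A-RNaseI list. From the untreated E-RNaseI and A-RNaseI lists 7 and 78 were missing. Of the 47 members with as many P-sites, 5, 4, 1 and 1 were missing from these lists. The main ORF is the one that ends at the gene's annotated stop codon with the most P-sites over all lists. Members lie on every large chromosome arm, 12 on 2L, 10 each on 2R, 3L and 3R, and 6 on X.

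For 5 annotated genes no ORF was assigned: RpL10Aa, RpL22-like, RpL37-2, RpL41 and RpL7-like. RpL41 is the shortest ribosomal protein. The first 3 of these genes are paralogs of genes that were found, RpL10Ab, RpL22 and RpL37-1. RpL7-like, related to a yeast assembly factor, was left out because its ORF of 771 nt lies in the spans of both RpL7-like and CG34164. That ORF had 323 P-sites in the treated E-RNaseI and 174 in the treated A-RNaseI list, 1616 in the deep list, and 122 in the untreated E-RNaseI and 114 in the untreated A-RNaseI list. Reads that fit near-identical copies equally well can be moved or lost in mapping, so the values of paralog pairs are uncertain.

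Large subunit ORFs took a similar part of the P-sites in every list. Their share was 4.63% in the treated E-RNaseI and 4.96% in the treated A-RNaseI list, 5.02% in the deep list, and 5.18% in the untreated E-RNaseI and 5.32% in the untreated A-RNaseI list. The counting intervals of these shares are narrow, for example 4.61 to 4.66% against 5.12 to 5.23% for E-RNaseI with and without cycloheximide. With either RNase the share was lower in the list with cycloheximide than in its untreated counterpart, but more members had no main ORF in the treated lists. Over the 42 members in all lists the shares lay closer together, at 4.60% (4.57 to 4.63) in the treated and 4.78% (4.73 to 4.84) in the untreated E-RNaseI list, and at 4.80% (4.76 to 4.85) in the treated and 4.95% (4.893 to 5.002) in the untreated A-RNaseI list. The deep list had 4.54% (4.53 to 4.56) over these members, below the treated E-RNaseI list, so the direction with E-RNaseI turned with the untreated list used. The RpS share lay between 3.04 and 3.64%, and the mRpL share between 0.230 and 0.315%.

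The median member had 407 P-sites per 100 nt in the treated E-RNaseI and 180 in the treated A-RNaseI list, 1565 in the deep list, and 114 in the untreated E-RNaseI and 132 in the untreated A-RNaseI list. These were 54.7, 36.0, 54.5, 36.9 and 33.5 times the medians of all genes in the same lists. Those medians cover different sets of genes, 5588, 4312, 6103, 4799 and 3848 in the same order. The multiples therefore do not measure a change between lists, and the deep and standard lists of the same condition differ in them as well. Of the members in each list, 41 of 43, 41 of 44, 47 of 48, 44 of 47 and 43 of 47 stood among the top 5% of genes by level, in the same order of lists.

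Among the members, levels ran over more than an order of magnitude in every list, with RpL24-like the lowest. The highest member exceeded the lowest, RpL24-like, 26.1 times in the treated E-RNaseI list, where RpL26 led, and 28.8 times in the treated A-RNaseI list, where RpL35 led. It did so 35.9 times in the deep list, led by RpL39, 31.3 times in the untreated E-RNaseI list, led by RpL29, and 16.0 times in the untreated A-RNaseI list, led by RpL39. The values of the untreated standard lists rest on shorter ORFs. RpL29 was called with 126 nt in the untreated E-RNaseI list and 228 nt in the others. RpL24-like was called with 108 nt in the untreated A-RNaseI list and 573 nt in the others. Among the highest in the deep list were RpL39 with 5786, RpL12 with 3728, RpL38 with 3457 and RpL10Ab with 3444 P-sites per 100 nt. The 5 lowest there were RpL24-like with 161, RpL34a with 521, RpL35A with 607, RpL13 with 678 and RpL30 with 693. The yeast counterpart of RpL30 represses the splicing of its own transcript. RpL24-like, which resembles a yeast factor of subunit assembly rather than a structural protein, was the lowest member of each list, with 34.9, 15.9, 161, 11.2 and 22.2 P-sites per 100 nt. Without it the range was narrower. The next lowest were RpL35A with 103, RpL34a with 53.1, 521 and 34.8, and RpL35A with 44.8, in the same order of lists. The highest members had 910, 457, 5786, 350 and 356 in that order.

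The order of members was similar between lists. Spearman's rho of their levels was 0.988 between the deep and the standard list of the same condition and 0.842 to 0.927 between the other pairs of lists, over 42 to 47 members. The lists share the same genes and ORF lengths, and the deep and standard samples may share a library. Level and ORF length had a rho of −0.107 to −0.269 over the members of a list.

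**Figure D1:**
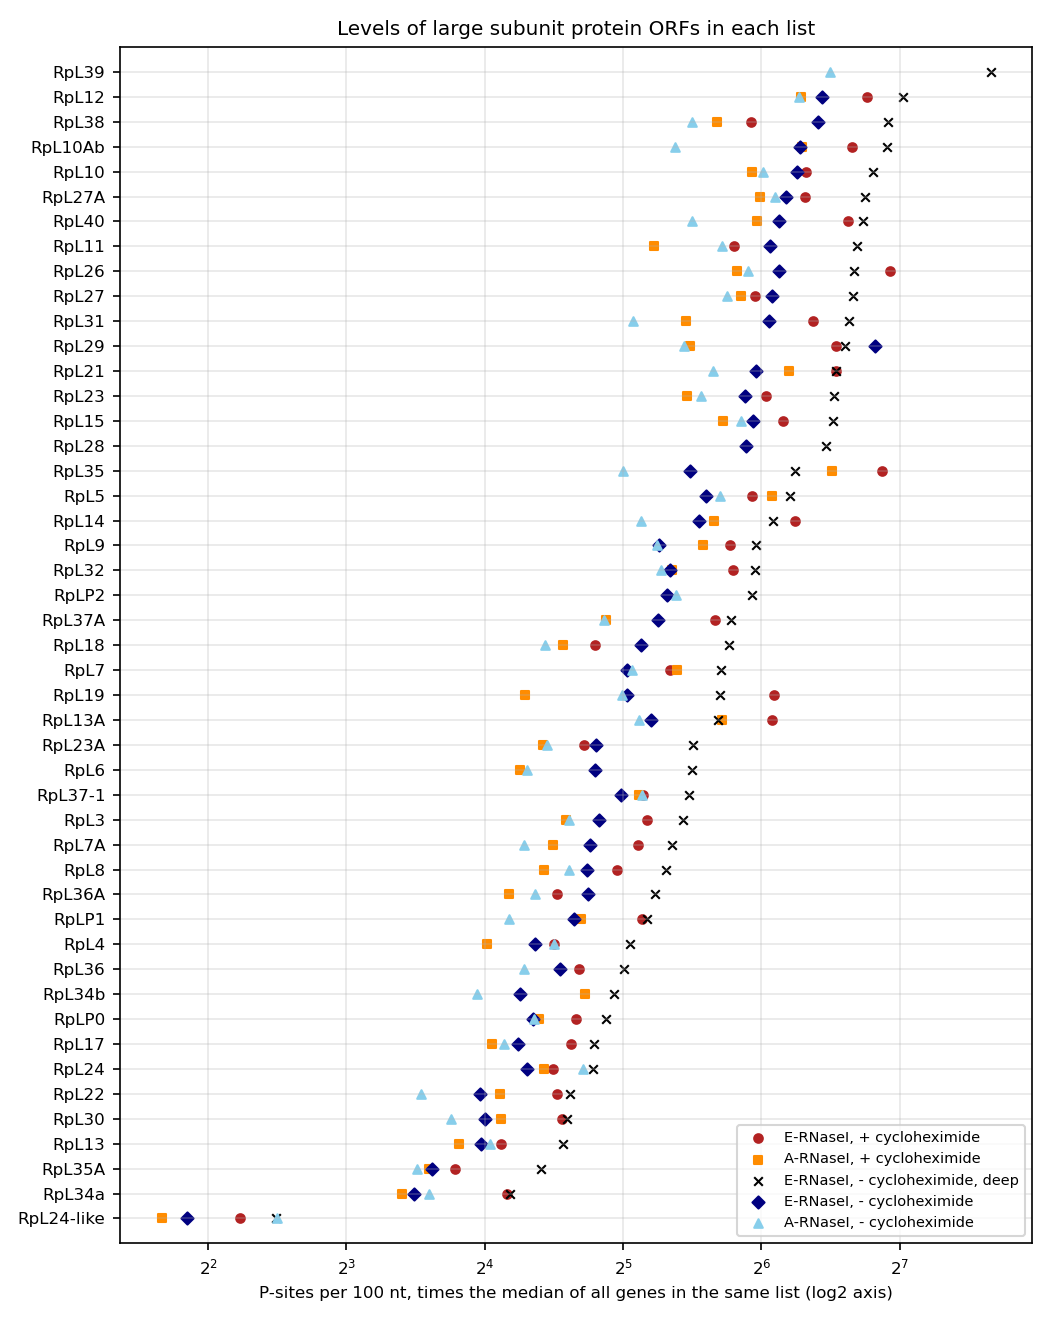
Level of the members described here in each list, as P-sites per 100 nt divided by the median of all genes in that list (log2 axis), with 1 point per list and members ordered by the deep list. All members but RpL24-like form one continuous range, and members missing from a list have no point there. The median covers a different set of genes in each list, so distances between points of different lists do not measure a change.

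The stalk proteins did not share a level. RpL12, at the stalk base, had 808 P-sites per 100 nt in the treated E-RNaseI and 392 in the treated A-RNaseI list, 3728 in the deep list, and 269 in the untreated E-RNaseI and 303 in the untreated A-RNaseI list. RpLP0, the stalk anchor, had 188, 105, 840, 63.1 and 80.3 in the same order, and RpLP1, an acidic tip protein, 262, 130, 1036, 77.7 and 71.1. RpL12 was thus several times higher than RpLP0 and RpLP1 in every list, although the acidic tip proteins are present in more than a single copy per ribosome. RpLP2, the partner of RpLP1, had 1751 in the deep list, 123 in the untreated E-RNaseI and 164 in the untreated A-RNaseI list, and was called in neither treated list.

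RpL5 and RpL11 bind the 5S rRNA together as a particle. RpL5 had 454 P-sites per 100 nt in the treated E-RNaseI and 339 in the treated A-RNaseI list, 2121 in the deep list, and 150 and 205 in the untreated E-RNaseI and A-RNaseI lists. RpL11 had 416, 187, 2962, 207 and 206 in the same order. RpL11 was the lower of the pair in both lists with cycloheximide, and without cycloheximide the higher with E-RNaseI, at both depths, and nearly level with RpL5 with A-RNaseI.

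Of the proteins near the catalytic centre and the tRNA sites, RpL10 was the highest in each list. It had 595 and 306 P-sites per 100 nt in E-RNaseI and A-RNaseI with cycloheximide, 3217 in the deep list, and 237 and 253 in E-RNaseI and A-RNaseI without it. RpL3, RpL4, RpL8 and RpL36A, whose levels lay close together, had between 949 and 1236 in the deep list. RpL40, made as a fusion with ubiquitin that is cut off afterwards, had 736, 314, 3059, 217 and 177, again in the same order of lists.

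Proteins of the tunnel and its exit ran from the highest level of the subunit to some of its lower ones. RpL39, a very short protein lining the tunnel, led the deep list and, with 356 P-sites per 100 nt, the A-RNaseI list without cycloheximide. RpL22, which carries a long N-terminal extension in flies, had 171 and 86.6 in E-RNaseI and A-RNaseI with cycloheximide, 705 in the deep list, and 48.4 and 45.7 without it. RpL38 had 3457, RpL26 2920, RpL31 2847 and RpL35 2167 in the deep list, and RpL19 1493, RpL23A 1303 and RpL17 792. RpL23A is a docking site for factors that meet the nascent chain, and the human counterpart of RpL26 is known to bind the mRNA of p53.

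Among paralogs, RpL24, which reaches over to the small subunit, exceeded RpL24-like in each list, with 790 against 161 P-sites per 100 nt in the deep list. RpL34b, with 875, exceeded RpL34a, with 521, in the deep list, and did so in the 3 standard lists that hold both. RpL7, RpL10Ab and RpL37-1 had 1497, 3444 and 1277 in the deep list.

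Comparing samples with and without cycloheximide asks how the drug changes the footprints of these ORFs. For each member the ratio of levels was divided by the median ratio of all genes in both lists and given as log2, so that 0 means a change like that of the median gene. As a set the large subunit stayed near 0. The median log2 ratio of 43 members was 0.04 with E-RNaseI, and that of 44 members was −0.09 with A-RNaseI. The RpS genes had medians of 0.18 and 0.14. These 2 comparisons share no list.

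A single member, RpL35, passed 2-fold in either comparison, and it did so in both. RpL35, a protein at the tunnel exit near the docking site of the signal recognition particle, lies on X at 5672874 to 5673447 and was called with the same 369 nt in all lists. It had 3212 P-sites in the treated and 512 in the untreated E-RNaseI list, 1687 in the treated and 464 in the untreated A-RNaseI list, and 7996 in the deep list. Both treated lists were high relative to the untreated ones. The centred log2 ratio was 1.11 (0.97 to 1.24) with E-RNaseI and 1.39 (1.25 to 1.55) with A-RNaseI. Among all genes 2.72% passed 2-fold higher with E-RNaseI and 2.04% with A-RNaseI, or 0.347% and 0.177% of genes with at least 100 P-sites in both lists. Against the deep list the value for RpL35 was 0.89 (0.83 to 0.95), under 2-fold. No member passed 2-fold lower, where 2.44% and 1.77% of all genes did.

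Smaller differences went both ways. With E-RNaseI, 14 members had an interval above and 12 an interval below the median gene, against 13.5% and 11.7% of all genes. With A-RNaseI 13 lay above and 19 below, against 11.9% and 11.4%. Members have many P-sites and so narrow intervals. Among genes with at least 100 P-sites in both lists the background was 20.6% above and 23.2% below with E-RNaseI, and 17.2% and 19.9% with A-RNaseI. The members' shares were 32.6% and 27.9% with E-RNaseI, and 29.5% and 43.2% with A-RNaseI.

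Of 42 members in both cycloheximide comparisons, 9 lay above the median gene in both, against 5.93% of all genes, and 8 lay below in both, against 4.47%. These shares of all genes include many with few P-sites and wide intervals. The share among genes with at least 100 P-sites was not counted for both comparisons together, so no excess of members can be read from these counts. Those above were RpL10Ab, RpL13A, RpL14, RpL21, RpL22, RpL35, RpL40, RpL9 and RpLP1. Those below included RpL10, RpL11, RpL23, RpL23A, RpL27A, RpL36A and RpL4. All but RpL10Ab and RpL4 kept their start codon in these lists. With E-RNaseI, RpL10Ab had a log2 ratio of 0.10 (0.01 to 0.18). Its interval held 0 with the deep list as the untreated one, where the ratio was 0.01 (−0.04 to 0.05), and the ratio was −0.02 (−0.10 to 0.06) when centred on all P-sites. Under that centring the E-RNaseI intervals of RpL40, RpL9 and RpLP1 held 0 as well, at ratios of 0.10, 0.12 and 0.10.

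RpL13A, whose human counterpart is known for its role in silencing inflammatory mRNAs, had 3085 P-sites with and 703 without cycloheximide with E-RNaseI, and 1623 with and 837 without it with A-RNaseI. Its log2 ratios were 0.59 (0.47 to 0.71) and 0.49 (0.37 to 0.61). RpL14 had 0.41 with either RNase, RpL21 0.30 with E-RNaseI and 0.43 with A-RNaseI, RpL22 0.28 and 0.45, and RpL40 0.22 and 0.35. For these genes the values of the pair of RNases lay close together.

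RpL11 was the lowest of the 8 below. It had 2298 P-sites with and 1144 without cycloheximide with E-RNaseI, and 1033 with and 1139 without it with A-RNaseI. Its log2 ratios were −0.54 (−0.64 to −0.43) and −0.61 (−0.73 to −0.49), whereas those of its partner RpL5 were 0.05 (−0.03 to 0.14) and 0.26 (0.17 to 0.34). The intervals of the pair do not overlap with either RNase. RpL10, which joins the subunit late in assembly near the P site, had −0.22 and −0.19.

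RpL36A and RpL27A are counterparts of yeast proteins in which single changes make ribosomes resistant to cycloheximide. RpL36A had 535 P-sites with and 259 without cycloheximide with E-RNaseI, and 283 with and 252 without it with A-RNaseI, at log2 ratios of −0.50 (−0.71 to −0.28) and −0.30 (−0.55 to −0.05). RpL27A had −0.14 and −0.23. With A-RNaseI, all 5 proteins of the catalytic centre and tRNA sites, RpL3, RpL4, RpL8, RpL10 and RpL36A, lay below the median gene. With E-RNaseI 3 of the 5 did, RpL4, RpL10 and RpL36A. Of all members 43.2% and 27.9% lay below, and of all genes 11.4% and 11.7%. Of genes with at least 100 P-sites in both lists 19.9% and 23.2% did. These 5 genes were grouped with earlier results of these data known, so no excess is read from them. RpL4 was called with a shorter ORF in the A-RNaseI list without cycloheximide.

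Other members differed by RNase. RpL38, a very small protein known in mice for its part in skeletal patterning, had 951 P-sites with and 552 without cycloheximide with E-RNaseI, a log2 ratio of −0.76 (−0.91 to −0.60), but 540 with and 373 without it with A-RNaseI, a ratio of 0.07 (−0.13 to 0.26). RpL18 had −0.61 (−0.75 to −0.47) with E-RNaseI and 0.02 (−0.15 to 0.19) with A-RNaseI. RpL26 had 0.53 (0.43 to 0.63) with E-RNaseI and −0.20 (−0.33 to −0.06) with A-RNaseI. The values of RpL26 cover different ORFs, of 447 nt with E-RNaseI and of 360 nt with A-RNaseI, which leaves out the first 87 nt. For each of the 3 genes the intervals of both RNases do not overlap, and whether this goes beyond the difference between repeated samples could not be tested.

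**Figure D2:**
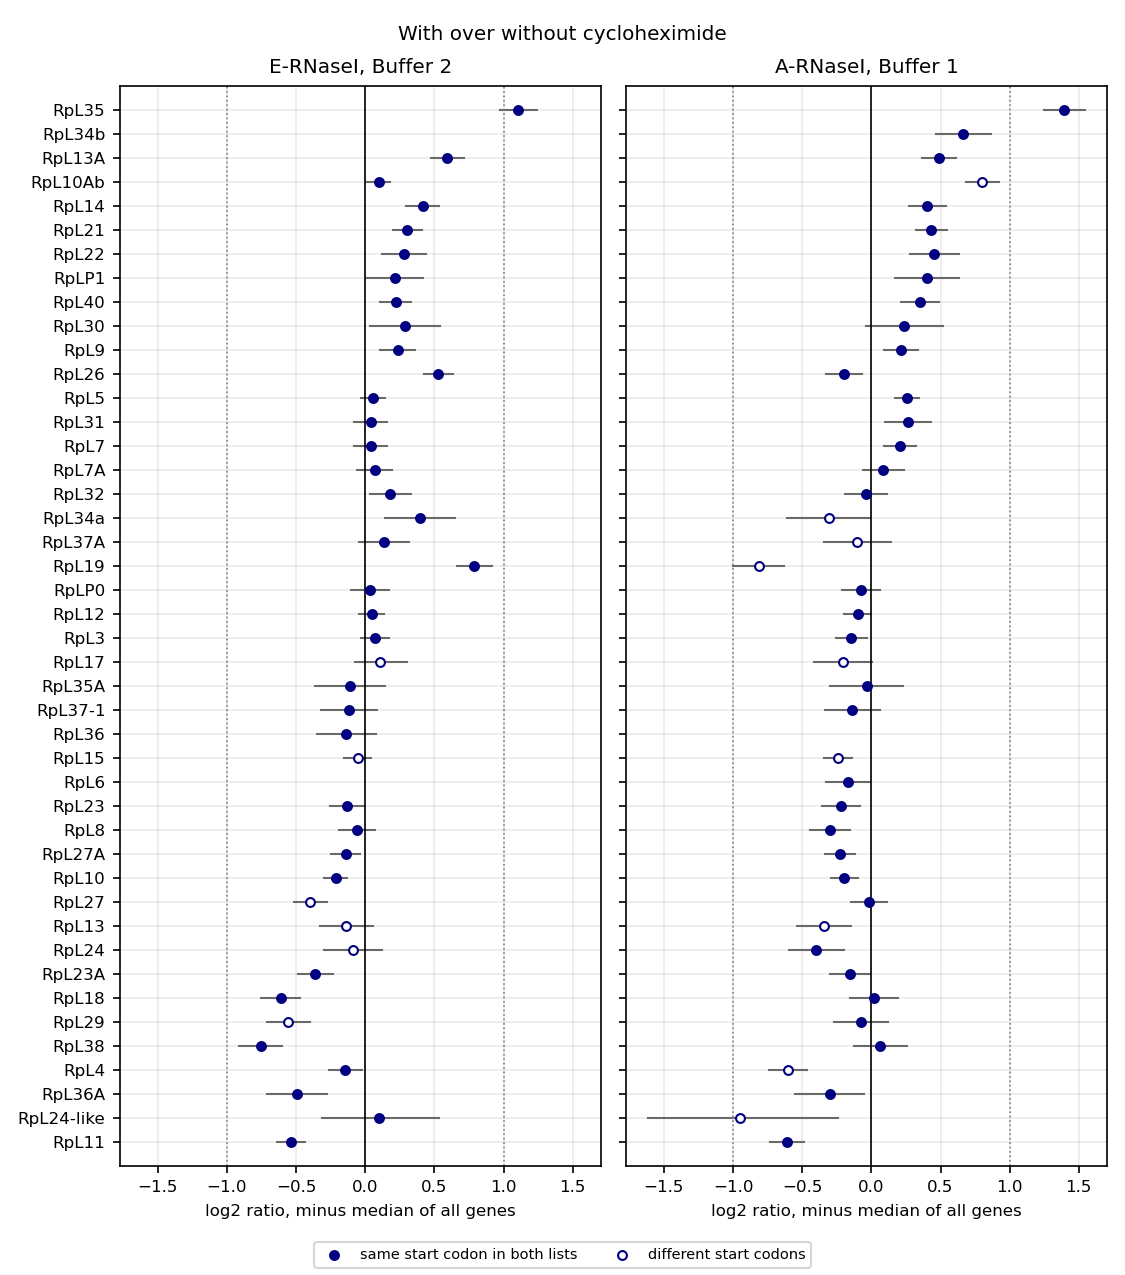
Log2 ratio of levels with over without cycloheximide for the members described here, minus the median of all genes, with E-RNaseI (left) and A-RNaseI (right); lines are 95% counting intervals, open points mark members called with different start codons, and dotted lines mark 2-fold. RpL35 lies beyond the 2-fold line in both panels, and the other members lie within it.

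Comparing E-RNaseI in Buffer 2 with A-RNaseI in Buffer 1 asks what the footprinting conditions change, and enzyme and buffer cannot be told apart. The median log2 ratio of E-RNaseI over A-RNaseI was 0.06 over 42 members with cycloheximide and 0.01 over 46 members without it. These 2 comparisons share no list with each other, but each shares lists with the cycloheximide comparisons. The median of the RpS genes was 0.18 and 0.04.

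The members past 2-fold were RpL19 with cycloheximide and RpL29 without it, against 1.69% and 2.01% of all genes past 2-fold higher; none passed 2-fold lower, where 1.76% and 2.42% of all genes did. RpL19, a tunnel exit protein that also bridges to the small subunit, had 3098 P-sites on 609 nt with E-RNaseI and 339 on 345 nt with A-RNaseI in treated cells, a log2 ratio of 1.42 (1.26 to 1.59). Without cycloheximide it had 617 and 761 P-sites, both on 609 nt, and a ratio of −0.19 (−0.35 to −0.04). RpL29 had 441 P-sites on 126 nt with E-RNaseI and 390 on 228 nt with A-RNaseI without cycloheximide, a ratio of 1.14 (0.94 to 1.34). Both values above 2-fold compare ORFs called with different start codons. With cycloheximide, where RpL29 was called with 228 nt by either RNase, its ratio was 0.67 (0.53 to 0.82).

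With cycloheximide 16 members had an interval above and 8 below the median gene, against 16.1% and 15.9% of all genes and 23.5% and 25.5% of those with at least 100 P-sites. Without it 11 lay above and 15 below, against 10.1% and 10.8%, or 16.5% and 17.7% with at least 100 P-sites. Most members lie well above that limit, so no excess of members is read from these shares. In both comparisons 6 members lay above, against 5.32% of all genes, among them RpL14, RpL29, RpL31, RpL40 and RpL7A. When centred on all P-sites the intervals of RpL14 and RpL7A held 0 in both comparisons, at log2 ratios of 0.05 and 0.07 with cycloheximide and 0.06 and 0.11 without it. Another 6 lay below in both, against 5.54%: RpL24, RpL37-1, RpL5, RpL7, RpL9 and RpLP0. With cycloheximide RpL24 was called with 465 nt with E-RNaseI and 405 nt with A-RNaseI, so its value there compares different start codons, as that of RpL29 does without it. For these counts in both comparisons too, the share among genes with at least 100 P-sites was not counted, so no excess of members can be read from them.

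RpL31, which sits at the tunnel exit, had 2298 P-sites in the treated E-RNaseI and 817 in the treated A-RNaseI list, and 768 in the untreated E-RNaseI and 492 in the untreated A-RNaseI list. Its log2 ratios were 0.54 (0.42 to 0.66) and 0.75 (0.59 to 0.92). RpL5 was on the other side, with 4075 P-sites in the treated E-RNaseI and 3039 in the treated A-RNaseI list, and 1347 and 1837 in the untreated lists. Its ratios were −0.53 (−0.60 to −0.46) and −0.34 (−0.44 to −0.24).

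**Figure D3:**
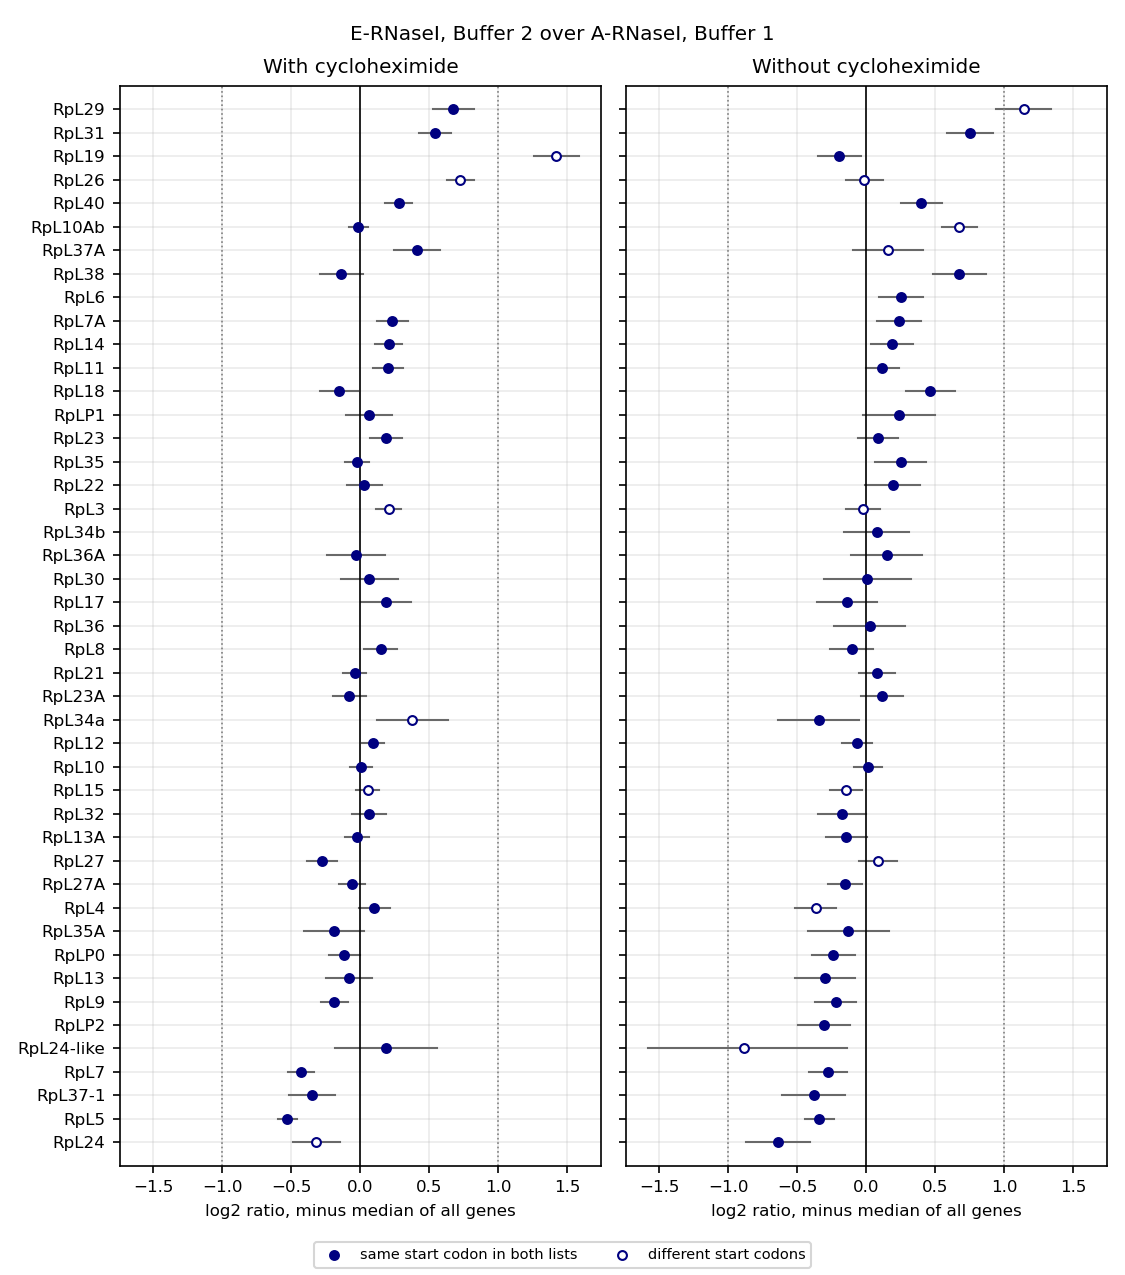
Log2 ratio of levels of E-RNaseI, Buffer 2 over A-RNaseI, Buffer 1 for the members described here, minus the median of all genes, with cycloheximide (left) and without it (right); lines are 95% counting intervals, open points mark members called with different start codons, and dotted lines mark 2-fold. The values past 2-fold, RpL19 on the left and RpL29 on the right, are open points.

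The deep list over the standard list of the same condition shows how much the values move with depth, and possibly with a second sample. The median log2 ratio of 47 members was 0.02. The intervals of 6 members lay above the median gene, against 3.84% of all genes and 6.87% of those with at least 100 P-sites in both lists, and that of RpL29 lay below, against 5.61% and 4.21%. Most members lie well above that limit here too, so no excess is read. No member passed 2-fold, where 0.438% of all genes passed it higher and 1.69% lower. RpL29, called with 228 nt in the deep list and 126 nt in the standard one, had −0.78 (−0.92 to −0.64). The other members lay between −0.11 and 0.22. RpL35, at 0.19 (0.06 to 0.32), was among the 6.

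The start codon in a list is the most upstream in-frame ATG with at least a few P-sites before the next ATG, so it records where P-sites were found near the 5′ end. Members mostly kept it. With over without cycloheximide, 37 of 43 members (86.0%) with E-RNaseI and 35 of 44 (79.5%) with A-RNaseI had the same start codon in both lists, against 51.8% and 44.9% of all genes. Among genes with at least 100 P-sites in both lists the background was 71.6% and 63.6%, and members gave 85.7% and 81.4%. For E-RNaseI over A-RNaseI it was 36 of 42 (85.7%) with cycloheximide and 37 of 46 (80.4%) without it, against 55.7% and 49.8% of all genes. For the deep over the standard list it was 42 of 47 (89.4%), against 51.3%. With at least 100 P-sites, the background of these 3 comparisons was 73.2%, 72.1% and 70.4%, and members gave 85.4%, 82.2% and 89.1%. The RpS genes gave 93.3% and 69.2% for cycloheximide with E-RNaseI and A-RNaseI. They gave 78.6% in both RNase comparisons and 93.5% for the deep over the standard list. Most members lie well above 100 P-sites, and their ORFs are short, with a median of 495 against 1371 nt for all genes in the treated E-RNaseI list. This background is therefore not matched to the members.

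The length compared is that of the longest ORF of the main stop codon in a list. Of the 48 members, 34 had 1 such length in every list that holds them, and 14 had more than 1. Every distance between their starts was a multiple of 3, which keeps the reading frame. The deep list held the longest form of 13 of the 14, all but RpL15. The shortest form occurred in 8 of the 14 in the A-RNaseI list without cycloheximide, in 6 in the A-RNaseI list with it, in 5 in the E-RNaseI list without it, and in 1 in the E-RNaseI list with it.

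In 8 members this longest ORF was shorter in a single list than in the other 4. In the untreated A-RNaseI list these were RpL10Ab (465 against 651 nt), RpL24-like (108 against 573), RpL37A (192 against 276) and RpL4 (894 against 1203). In the treated A-RNaseI list they were RpL19 (345 against 609) and RpL34a (294 against 486), and in the untreated E-RNaseI list RpL29 (126 against 228) and RpL27 (393 against 405). RpL24-like rested on 24 P-sites in the untreated A-RNaseI list. The 465 nt ORF of RpL10Ab was called in every list, on another transcript than the 651 nt ORF. The untreated A-RNaseI list thus lacked the long ORF of RpL10Ab and did not add a short one.

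In other members the start went with a condition. RpL26 and RpL3 followed the RNase: RpL26 was called with 447 nt with E-RNaseI and 360 nt with A-RNaseI, and RpL3 with 1248 and 1209 nt, whatever the treatment and depth. RpL17 followed cycloheximide, with 444 nt in both lists with the drug and 558 nt in the 3 lists without it. In RpL13, RpL24 and RpL15 the start differed between the deep and the standard list of untreated E-RNaseI, so it did not go with a condition. RpL13 was called with 654 nt in both lists with cycloheximide and in the deep list, and with 636 nt in both standard lists without it. RpL24 was called with 465 nt with E-RNaseI with cycloheximide and in the deep list, and with 405 nt in the other lists. RpL15 had 636 nt in the treated E-RNaseI and 684 nt in the treated A-RNaseI list, 612 nt in the deep list, and 594 and 612 nt in the untreated E-RNaseI and A-RNaseI lists. Its 612 nt ORF was called in both treated lists too, where the longer form lies on another transcript. The longer form added 2 of 3385 P-sites in the treated E-RNaseI and 16 of 1813 in the treated A-RNaseI list.

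**Figure D4:**
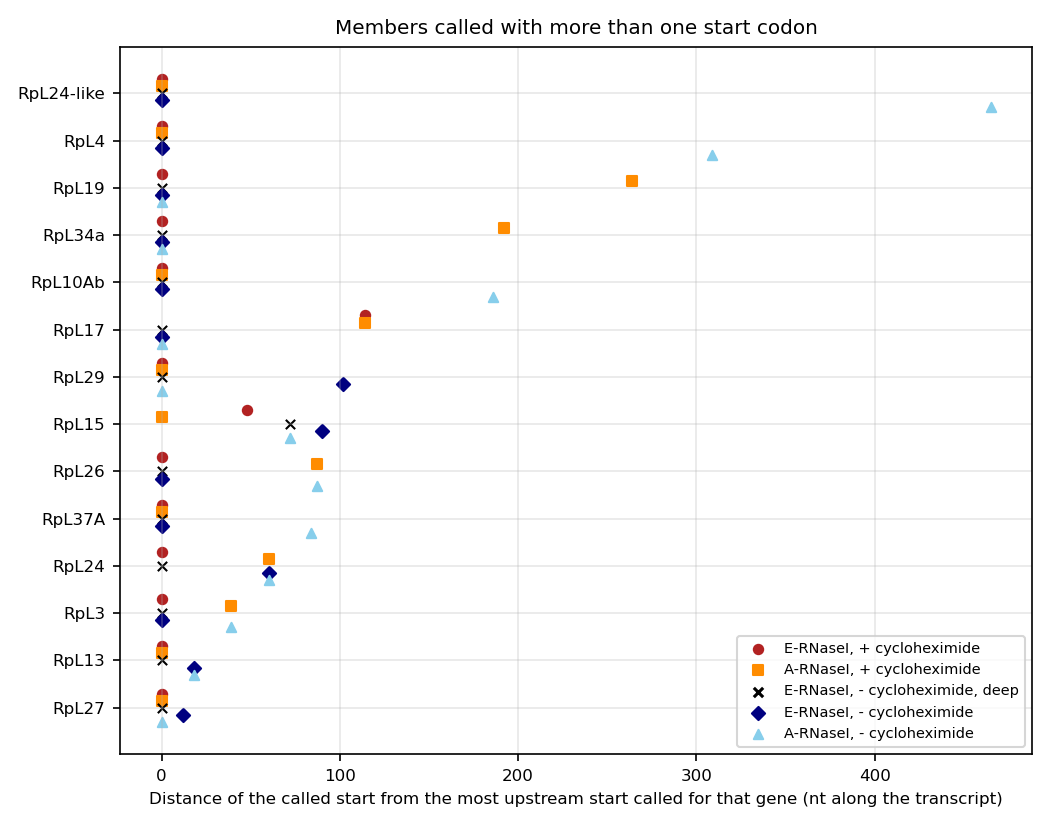
Distance (nt, as the difference in ORF length) from the most upstream start codon called for a gene to that of the longest ORF in each list. Shown are the 14 members with more than 1 such start, with 1 point per list. Most displaced points are A-RNaseI lists, and RpL26 and RpL3 are displaced in both of them.

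For a few members the lists hold a short and a long ORF of the same stop codon, or an upstream and a downstream ORF on a transcript, which shows where in the gene the P-sites lay. RpL13A, on 3R at 5624501 to 5625868, has a long ORF of 615 nt and a short one over its last 351 nt. The short one held 39.7% (37.9 to 41.4) of the P-sites in the treated E-RNaseI and 53.4% (50.9 to 55.8) in the treated A-RNaseI list, 63.9% (62.9 to 64.9) in the deep list, and 64.9% (61.2 to 68.4) in the untreated E-RNaseI and 69.8% (66.5 to 72.9) in the untreated A-RNaseI list. With either RNase a smaller part of the P-sites lay in the 3′ part with cycloheximide, and the intervals do not overlap. Of the genes with such a pair of ORFs, 18 of 108 (16.7%) with E-RNaseI and 10 of 68 (14.7%) with A-RNaseI had a lower 3′ share with intervals apart, and 2.78% and 1.47% a higher one. Among those with at least 100 P-sites in both lists, 16 of 60 (26.7%) and 10 of 52 (19.2%) had a lower one.

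The 5′ part of RpL13A had 705 P-sites per 100 nt with and 93.6 without cycloheximide with E-RNaseI, and its 3′ part 349 with and 130 without it. With A-RNaseI the 5′ part had 287 with and 95.8 without it, and the 3′ part 247 with and 166 without it. The larger difference was thus in the 5′ part with either RNase. These P-sites are the same ones that placed RpL13A above the median gene, so the 2 results are not independent. A further ORF of 303 nt from the same start, on a transcript that is spliced otherwise, was called only without cycloheximide, with 3271 P-sites in the deep list, 247 in the untreated E-RNaseI and 252 in the untreated A-RNaseI list.

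RpL10Ab, on 3L at 11822887 to 11824149, went the other way with E-RNaseI. The last 465 of its 651 nt held 58.4% (57.0 to 59.8) of the P-sites in the treated E-RNaseI and 53.1% (51.1 to 55.0) in the treated A-RNaseI list, against 44.8% (44.2 to 45.5) in the deep list and 43.0% (40.5 to 45.5) in the untreated E-RNaseI list. The A-RNaseI list without cycloheximide held the short ORF alone, with 757 P-sites, and gave no share. With E-RNaseI, RpL10Ab was 1 of 3 genes of 108 with a higher 3′ share with cycloheximide and intervals apart. An upstream ORF of 171 nt on the transcript of the short form was called only with cycloheximide, with 2023 P-sites in the E-RNaseI and 1191 in the A-RNaseI list.

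RpL3, a long protein that reaches the catalytic centre, lies on 3R at 11221931 to 11224849. A transcript of it carries an upstream ORF, of 414 nt with E-RNaseI and 375 nt with A-RNaseI, and a downstream ORF of 948 nt, and these were chosen for description after their values were seen. Of the P-sites of both, the downstream ORF held 30.9% (29.4 to 32.5) in the treated E-RNaseI and 53.0% (50.4 to 55.5) in the treated A-RNaseI list, 47.0% (46.3 to 47.8) in the deep list, and 43.4% (40.4 to 46.4) in the untreated E-RNaseI and 49.2% (46.3 to 52.1) in the untreated A-RNaseI list. With E-RNaseI the share was lower in treated cells, whereas the intervals of the A-RNaseI lists overlap. In the E-RNaseI list with cycloheximide the upstream ORF had 2316 P-sites and the downstream ORF 1037, and in the standard list without it 620 and 475. A further stop codon of RpL3, of an ORF of 483 nt with E-RNaseI and 444 nt with A-RNaseI, was in all 5 lists.

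**Figure D5:**
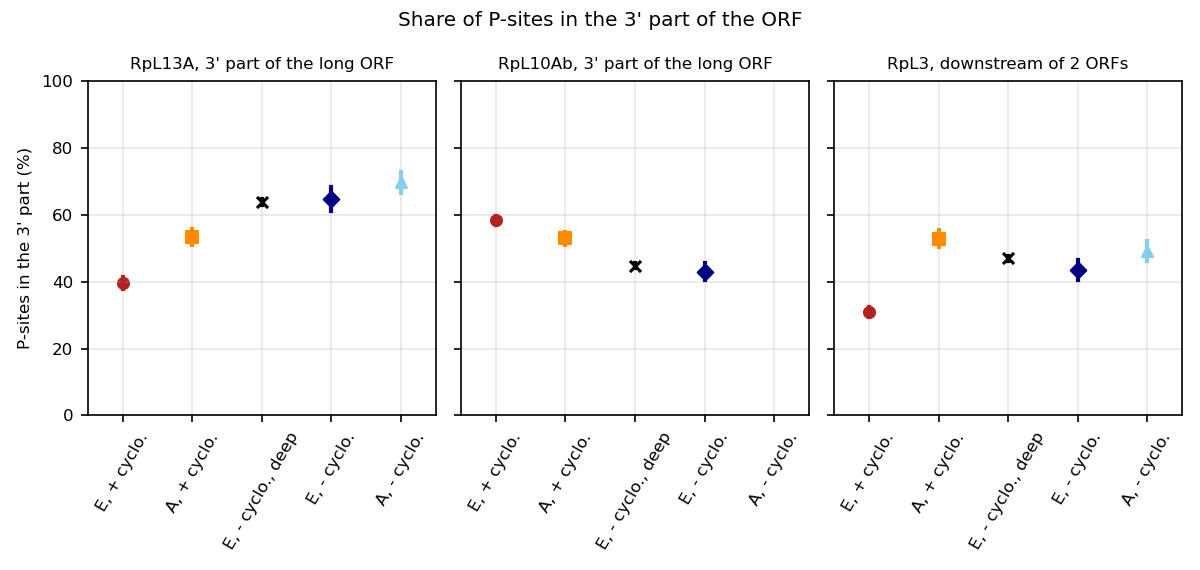
Share of P-sites (%) in the 3′ part of the long ORF for RpL13A and RpL10Ab, and in the downstream of a pair of ORFs for RpL3, in each list (E and A are the RNases, cyclo. is cycloheximide); bars are 95% binomial intervals. RpL13A is lower with cycloheximide with either RNase, and RpL3 is lowest in E-RNaseI with cycloheximide. RpL10Ab is higher with cycloheximide with E-RNaseI, and has no value in A-RNaseI without it.

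Although they rank so high, 6 members of the deep list were missing from 1 or more standard lists. RpL28, RpL34b, RpL39, RpL6 and RpLP2 had no main ORF in E-RNaseI with cycloheximide, RpL28, RpL36, RpL39 and RpLP2 had none in A-RNaseI with it, RpL39 had none in E-RNaseI without it, and RpL28 had none in A-RNaseI without it. Of all genes in the deep list, 9.00%, 29.6%, 21.5% and 37.1% were missing from these lists. Of the 1651 genes with at least 1000 P-sites in the deep list, however, only 1.03%, 2.73%, 0.424% and 4.72% were missing. All but 1 of the members had that many, so that 5 of the 17 such genes missing from E-RNaseI with cycloheximide were large subunit genes.

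In the deep list RpL28, which has no counterpart in S. cerevisiae, had 10932 P-sites, RpL6 10205, RpL39 8852, RpLP2 5937, RpL34b 4409 and RpL36 3176. Where called in a standard list, RpL28 had 791 P-sites with E-RNaseI without cycloheximide, and RpL39 had 544 with A-RNaseI without it. RpL6 had 753 with A-RNaseI with cycloheximide, and 676 in the untreated E-RNaseI and 612 in the untreated A-RNaseI list. RpL34b had 668, 298 and 305 in the same lists. RpLP2 had 418 in the untreated E-RNaseI and 557 in the untreated A-RNaseI list, and RpL36 had 659 with E-RNaseI with cycloheximide, and 249 in the untreated E-RNaseI and 264 in the untreated A-RNaseI list. Whether multimapping reads, which the filter of the lists acts on, had a part in these absences was not tested.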

How the data were processed

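Ribo-Seq of S2 cells gave 1 list of translated ORFs per sample. The authors trimmed reads with Cutadapt 2.10, removed rRNA and tRNA reads with Bowtie2 2.4.1, mapped with STAR 2.7.5c to Release 6 and SAMtools 1.10, chose read lengths per sample, called ORFs with RiboTaper and filtered ORFs in which more than a set part of the coverage came from multimapping reads alone. The deposited whole numbers per ORF are counts, read here as P-sites, without normalization and repeated on each exon line. The methods describe subsampling of alignments; whether the standard lists come from it is not stated outright. All columns of counts were used (columns left out: 0).

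Scripts ran under Python 3.11.15 and used scipy 1.17.1 for intervals, pandas 2.3.3 and numpy 2.4.6 for tables and matplotlib 3.10.9 for plots. Genes came from the RefSeq table by position, which holds no strand. An outer edge of an ORF can be off by 1 nt. The longest ORF per stop codon was kept, with no filter on P-sites, and overlapping ORFs of different stop codons share P-sites. Ratios were centred on the median of all genes in both lists, and intervals are exact binomial (Clopper-Pearson, 95%) intervals of P-sites. Called means past 2-fold, or an interval on 1 side of the median gene. Nested ORFs allowed 2 nt of the short ORF outside the long one.

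Members, gene lists and roles were chosen with earlier results of these data known. Named genes were RpL40, those of the stalk, the 5S particle, the catalytic centre, the tunnel and the paralog families, the 5 highest and 5 lowest in the deep list, and each member past 2-fold, with different starts, missing from a list or with an ORF that is not CCDS. Tests on simulated data used a pair of lists of 5383 genes drawn from the deep list with counting error only. They recovered 179 of 179 genes changed 4-fold, with 55 unchanged genes past 2-fold. All 268 of 268 shifted starts were found by construction. Starts were compared directly and not called from P-sites, so the tests do not show how reliable start calls are. Alternatives were other centres, limits on P-sites, ORF choices and, as untreated E-RNaseI list, the deep one. Sequences were not used here. Counts and medians cover all members, of which 1 is not reported here by name or in the plots.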

Additional observations from a re-analysis of the deposited data

Results flagged for a closer look

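Beside the CCDS ORFs, RpL genes had a few ORFs of other types, which the comparisons do not use. A list holds only ORFs of at least 6 P-sites. RpL39 had a downstream ORF (dORF) of 24 nt with 33 P-sites in E-RNaseI with cycloheximide, a list in which its main ORF was not called. RpL15 had an upstream ORF (uORF) of 105 nt with 14 P-sites in A-RNaseI with cycloheximide, and another of 42 nt with 130 P-sites in the deep list.

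Some members moved one way in a comparison and the other way in its counterpart, and these differences were not tested. With over without cycloheximide, RpL19 had a log2 ratio of 0.79 with E-RNaseI and −0.81 with A-RNaseI, RpL26 0.53 and −0.20, and RpL34a 0.39 and −0.31. RpL19 and RpL34a were called with a shorter ORF in A-RNaseI with cycloheximide. RpL26 kept its start within each RNase, but its ORF had 447 nt with E-RNaseI and 360 nt with A-RNaseI, without the first 87 nt. For E-RNaseI over A-RNaseI, RpL18 had −0.15 with and 0.46 without cycloheximide, RpL19 1.42 and −0.19, and RpL34a 0.37 and −0.34. The 2 sets of comparisons use the same 4 lists and are not independent of each other.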

How the results depend on the processing

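No paired analysis was possible because each condition had 1 list and the groups share fewer than 2 replicate numbers. With overlapping ORFs merged and counted once, the RpL share of P-sites was 5.25% in the treated E-RNaseI and 5.58% in the treated A-RNaseI list, 5.64% in the deep list, and 5.81% and 5.92% in the untreated E-RNaseI and A-RNaseI lists; with ORFs that lie in another gene as well, the deep share was 5.04%. Over the members in all 5 lists, a choice made after seeing the data, the shares were 4.60%, 4.80%, 4.54%, 4.78% and 4.95% in the same order. Past 1.5-fold instead of 2-fold, 5 members were counted for cycloheximide with E-RNaseI, 7 with A-RNaseI, 3 for E-RNaseI over A-RNaseI with cycloheximide, 6 without it and 1 for the deep over the standard list. The median log2 ratio of E-RNaseI over A-RNaseI with cycloheximide was −0.039 when P-sites were not divided by length and −0.10 when centred on all P-sites. That of the deep over the standard list, near 0 throughout, was −0.050 and −0.091 under these settings, −0.0089 with the same start codon only, and 0.0015 with at least 100 P-sites, a limit chosen after seeing the data. Another 70 values stayed within their intervals or within 1.5 times the count. Depth limits the low members most, and with 1 list per condition no difference could be set against a spread between samples.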
